A study of Sus scrofa with 12 samples.

Results

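The circadian clock genes of the neonatal pig uterus are described here across birth and the first 2 days of life. The set was given as a list of 10 gene names: PER1, PER2, PER3, CRY1, CRY2, DBP, NR1D1, NR1D2, ARNTL and CLOCK. By symbol, gene ID or description, 8 of these genes matched 13 rows of the 20390 gene rows in the deposited table. PER3 and NR1D1 matched no row and were not analysed here. PER1, PER2, ARNTL and CLOCK each had more than 1 row, because several gene models on the pig genome build Sscrofa10.2 carry the same gene name. The table describes some of these models as "like" proteins (LOC100511408 as a PER1-like and LOC100519573 as a PER2-like protein), so how reads were divided among models of 1 gene is uncertain. The later assembly Sscrofa11.1 holds no entry for the IDs of LOC100511408 (PER1), LOC100519573 and LOC100623672 (PER2), LOC100625775 (ARNTL) and LOC100522883 (CLOCK). Their names rest on the description in the deposited table. Of the 13 rows, 12 passed the filter on low values. The row with the symbol PER2 itself stood at 1, the lowest value of the table, in all 12 libraries and was not tested.

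Each library was made from the uterus of 1 crossbred gilt (a young female pig of Landrace, Yorkshire, Duroc and Hampshire stock), with 4 gilts in each of 3 groups. PND2N gilts (postnatal day 2, nursed) suckled freely for 48 h and their uteri were taken at 50 h of age. PND2R gilts (postnatal day 2, replacer) received a commercial milk replacer for 48 h and were also sampled at 50 h. PND0 gilts were sampled within 1 h of birth and had not nursed. The labels give no litter, date, batch or time of day for any animal. Age and feeding can therefore not be told apart from the hour of collection, which matters for genes whose level moves through the day.

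In mammals the clock is a feedback loop of transcription. ARNTL (also called BMAL1) and CLOCK form a dimer that activates the PER and CRY genes, and the PER and CRY proteins return to the nucleus and inhibit that dimer. NR1D1 and NR1D2 (REV-ERB alpha and beta) are nuclear receptors that repress ARNTL, and DBP is a transcription factor of the output branch that is itself driven by CLOCK and ARNTL. Peripheral tissues, the uterus among them, run this loop under signals that include feeding and glucocorticoids, and PER1 is a direct glucocorticoid target.

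Library totals of the normalized values ran from 26534074 to 29544130, and 17.8% to 22.1% of gene rows stood at 1 in a library. All 9 uterine markers examined, among them HOXA10, HOXA11, EMX2 and MSX1, had a row, and none stood at 1 in every library. Of the day 2 libraries, PND2N 1, PND2R 2 and PND2R 3 stood apart. The smooth muscle gene DES was at 40049 in PND2N 1, 33144 in PND2R 2 and 29022 in PND2R 3, against 7460.1 to 23439.7 in the other 9 libraries. In the same 3 libraries the endothelial gene VWF was at 24.2 to 90.2, against 591 to 3194 in the other 9. Not all endothelial genes followed, since KDR was at 2309.7 in PND2N 1, 2222 in PND2R 2 and 1939 in PND2R 3, against 1537 in PND2R 1 and 1571 in PND2R 4. Of the 16862 genes tested, 21.2% were lower in these 3 libraries than in each of the other 9, and 15.8% were higher. Of the 12 clock rows, 5 were lower there (1 row of PER2, NR1D2, the main ARNTL row and both CLOCK rows) and 1 was higher (DBP). Values from fits without these 3 libraries are given beside each gene that passed and beside NR1D2 and CLOCK. In bulk tissue fewer cells of a type and less RNA per cell cannot be told apart.

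At day 2 the PER1 rows and 1 PER2 row were lower than at birth in both feeding groups, by the limma test across all genes. CRY1 and CRY2 fell and DBP rose in replacer-fed gilts against newborns. In nursed gilts these 3 genes had changes of the same sign that did not pass the threshold. The main ARNTL row passed in no comparison, and its groups overlapped. CLOCK and NR1D2 passed in no comparison and varied far more within each day 2 group than within PND0. None of the 12 rows passed the threshold between nursed and replacer-fed gilts.

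PND2N versus PND0 gave 3 of 12 clock rows (2 of 8 genes, PER1 and PER2) past an adjusted p of 0.05, all lower, where 3.32% of all genes tested passed (1.91% higher and 1.41% lower). PND2R versus PND0 gave 6 of 12 rows (5 of 8 genes), of which 5 were lower and 1 higher, where 15.0% of all genes passed (7.70% higher and 7.31% lower). The 4 and 4 libraries did not overlap for 5 rows in PND2N versus PND0, against 16.0% of all genes, and for 8 rows in PND2R versus PND0, against 28.3% of all genes. The median log2 change of the 12 rows was −1.02 in PND2N versus PND0 and −1.48 in PND2R versus PND0, against −0.035 and −0.055 over all genes tested. Both comparisons use the same PND0 libraries, and rows of 1 gene are not independent of each other. The PND2N count was 1 without PND2N 1, 2 or 4, PND2R 4, or PND0 1, 3 or 4, and 0 with only the 8 libraries of that comparison in the fit. An F test over the 3 groups passed for 4 of 12 rows (PER1, PER2 and CRY2), where 6.43% of all genes passed, and for 1 row without PND0 4.

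**Figure D1:**
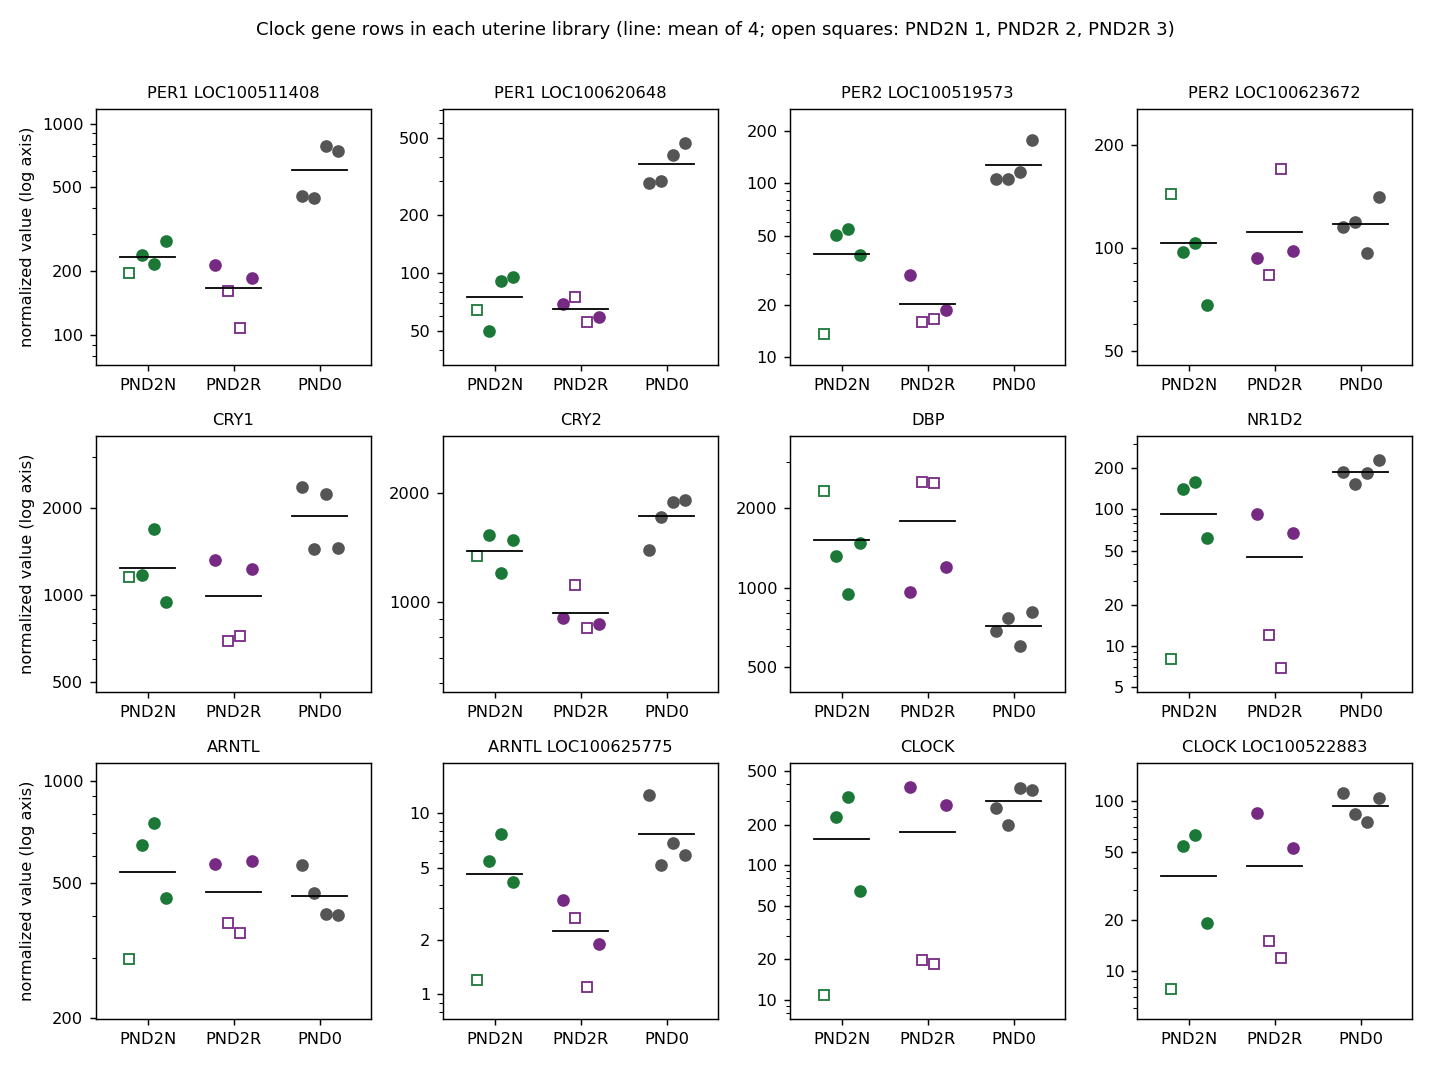
Normalized value (log axis) of the 12 tested clock rows in each library, by group, with the mean of 4 libraries as a line and PND2N 1, PND2R 2 and PND2R 3 as open squares. Both PER1 rows and PER2 LOC100519573 lie lower in all 8 day 2 libraries than in all 4 PND0 libraries, and DBP lies higher.

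PER1, a repressor that also responds quickly to hormones, had the lowest p among the clock genes. Its row LOC100620648 lies on chromosome 12 from 56193786 to 56202988 on the plus strand of Sscrofa10.2, and the gene ID is named PER1 in the later assembly Sscrofa11.1. Its normalized value was 64.9, 50.3, 91.2 and 95.3 in PND2N, 69.5, 75.3, 56.0 and 59.1 in PND2R, and 294, 301, 407 and 469.6 in PND0. Every day 2 library was below every PND0 library, and nursed and replacer-fed gilts overlapped. The log2 change was −2.29 ± 0.29 (SE) in PND2N versus PND0 (adjusted p = 0.00709) and −2.46 ± 0.29 in PND2R versus PND0 (adjusted p = 0.00391). Both calls held with each library left out in turn. The call in nursed gilts was lost when only the 8 libraries of the comparison entered the fit (adjusted p = 0.0553).

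The other PER1 row, LOC100511408 (chromosome 12, 55976609 to 56001821, minus strand), read 198, 240.4, 218 and 278 in PND2N, 215, 162, 108 and 185 in PND2R, and 457, 443, 781 and 740.1 in PND0. Again no day 2 library reached the lowest PND0 library. Within PND0, animals 3 and 4 stood above animals 1 and 2 in both PER1 rows. This row fell by a log2 change of −1.33 ± 0.28 in PND2N versus PND0 (adjusted p = 0.0311) and −1.84 ± 0.28 in PND2R versus PND0 (adjusted p = 0.00638). The call in replacer-fed gilts held with each library left out, and the call in nursed gilts was lost without PND2N 1, 2 or 4, PND2R 4, or PND0 1, 3 or 4 (adjusted p up to 0.0993) and with only the groups compared (0.0850).

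Summed over both rows, PER1 averaged 309 ± 46.9 in PND2N, 233 ± 50.0 in PND2R and 973 ± 261 in PND0 (SD, n = 4 each). LOC100511408, whose ID has no entry in the later assembly, supplied 59.6% to 82.7% of the sum across the libraries. The changes of the sum were −1.62 in PND2N versus PND0 (adjusted p = 0.0129) and −2.05 in PND2R versus PND0 (adjusted p = 0.00391). The row LOC100620648 supplied 17.3% to 29.5% of the sum in PND2N, 24.2% to 34.1% in PND2R and 34.3% to 40.4% in PND0. Its share in every day 2 library was thus below its share in every PND0 library, which means that the rows did not move by the same factor. Without the 3 libraries that stood apart, both PER1 rows remained past the threshold in both comparisons, with adjusted p from 0.0235 to 0.0479.

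PER2, the second repressor of the same family, was split over gene models that did not move together. LOC100519573 (chromosome 15, 147273037 to 147302265, plus strand) was at 13.5, 50.3, 55.0 and 38.7 in PND2N, 29.7, 15.9, 16.7 and 18.6 in PND2R, and 106, 106, 117 and 179 in PND0. All 8 day 2 libraries were below all 4 PND0 libraries. The row changed by −1.80 ± 0.44 in PND2N versus PND0 (adjusted p = 0.0470) and −2.60 ± 0.44 in PND2R versus PND0 (adjusted p = 0.00770). In replacer-fed gilts the call held with each library left out and without the 3 libraries together (−2.35, adjusted p = 0.0274). In nursed gilts it held in 1 of 12 such fits, without PND2N 3, and was lost without the 3 libraries (−1.37, adjusted p = 0.0570), with only the groups compared (0.104) and with an added value of 0.1 (0.0507).

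The row LOC100623672 (chromosome 15, 147530495 to 147556834, minus strand) read 144, 97.3, 103 and 68.1 in PND2N, 93.3, 83.5, 169 and 97.7 in PND2R, and 115, 119, 96.4 and 141 in PND0. The groups overlapped, and the log2 changes were −0.23 ± 0.32 in PND2N versus PND0 (adjusted p = 0.665) and −0.13 ± 0.32 in PND2R versus PND0 (adjusted p = 0.787). Summed over its rows, PER2 averaged 143 ± 24.2 in PND2N, 132 ± 37.9 in PND2R and 246 ± 49.8 in PND0. The sum fell in PND2R versus PND0 (−0.91, adjusted p = 0.0430), and its change in PND2N versus PND0 was −0.77 (adjusted p = 0.120). The later assembly holds no entry for the IDs of these PER2 rows, so the name of each rests on the description in the deposited table.

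CRY2, a cryptochrome that represses the CLOCK and ARNTL dimer, lies on chromosome 2 (18195282 to 18226958, minus strand). Its values were 1339, 1529, 1204 and 1481 in PND2N, 906, 1115, 848 and 873 in PND2R, and 1392, 1724, 1891 and 1916 in PND0. The replacer-fed gilts were the lowest of the 3 groups, with no overlap with either of the others, while nursed gilts overlapped with newborns. CRY2 fell in PND2R versus PND0 by a log2 change of −0.88 ± 0.16 (adjusted p = 0.00937), with each library left out in turn and without the 3 libraries that stood apart (−0.95, adjusted p = 0.0478). In PND2N versus PND0 the change was −0.31 ± 0.16 (adjusted p = 0.246).

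CRY1, the other cryptochrome (chromosome 5, 13229411 to 13318197, plus strand), read 1158, 1173, 1692 and 950.3 in PND2N, 1321, 694, 724 and 1230.5 in PND2R, and 2371, 1450.4, 2242 and 1463 in PND0. All replacer-fed libraries were below all PND0 libraries, and nursed libraries overlapped with both other groups. CRY1 changed by −0.95 ± 0.27 in PND2R versus PND0 (log2, adjusted p = 0.0398), and its difference in PND2N versus PND0 was −0.59 ± 0.27 (adjusted p = 0.212). The lowest replacer-fed values were those of PND2R 2 and 3. The PND2R call was lost without either of these, without PND2N 2 or 4 or PND0 1, 3 or 4, with library quality weights (−0.75, adjusted p = 0.0721) and without the 3 libraries together (−0.52, adjusted p = 0.320). At one end CRY1 overlaps the row LOC100520906, which averaged 56.7 ± 37.9 in PND2N, 35.6 ± 27.8 in PND2R and 197 ± 58.7 in PND0, and how shared reads were assigned is not stated.

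Among the 8 clock genes, DBP alone passed the threshold in the upward direction. Its row (LOC100524747, chromosome 6, 49139236 to 49145343, minus strand) was at 2338, 1323, 943 and 1482 in PND2N, 961, 2512, 2505 and 1201 in PND2R, and 684, 770.4, 603 and 811 in PND0. Each of the 8 day 2 libraries exceeded each PND0 library, and PND2N 1, PND2R 2 and PND2R 3 were the highest of all 12. DBP rose in PND2R versus PND0 (1.20 ± 0.34, adjusted p = 0.0372), and its change in PND2N versus PND0 was 1.02 ± 0.34 (adjusted p = 0.110). The call was lost without the 3 libraries (0.59, adjusted p = 0.187), with library quality weights (adjusted p = 0.0557) and in 8 of the 12 fits that left out 1 library (PND2N 2 or 4, PND2R 2 or 3, or any PND0 library). The gene CA11, which lies 507 bases away on the same strand, had the same 3 libraries at its top, with 1437 in PND2N 1, 1291 in PND2R 2 and 1287 in PND2R 3. CA11 was also higher in each day 2 library than in each PND0 library. Its change was 0.91 ± 0.33 in PND2N versus PND0 (adjusted p = 0.126) and 1.00 ± 0.33 in PND2R versus PND0 (adjusted p = 0.0563). SPHK2, the nearest gene at 4 bases away on the opposite strand, had its highest value in PND0 1 (2567) and a change of 0.076 in PND2R versus PND0. The labels do not say whether counting used the strand or how reads near both genes were assigned.

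NR1D2, the nuclear receptor that represses ARNTL (chromosome 13, 11936656 to 11955060, plus strand), read 8.03, 141, 160.2 and 61.8 in PND2N, 92.9, 12.1, 6.93 and 66.9 in PND2R, and 188, 155, 184 and 229.9 in PND0. The replacer-fed libraries were all below the PND0 libraries, and PND2N 3 was above the lowest of them. PND2N 1, PND2R 2 and PND2R 3 held 6.93 to 12.1, against 61.8 to 229.9 in the other 9 libraries. Its log2 difference was −1.65 ± 0.95 in PND2N versus PND0 (adjusted p = 0.294) and −2.72 ± 0.95 in PND2R versus PND0 (adjusted p = 0.0667), so NR1D2 passed in neither. It passed in PND2R versus PND0 with only those 8 libraries in the fit (adjusted p = 0.0404), without PND2N 1 (0.0226) and without PND2R 1 (0.0370). Without the 3 libraries the change was −1.24 (adjusted p = 0.122).

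ARNTL and CLOCK form the activating arm. ARNTL (chromosome 2, 49347989 to 49519017, minus strand) was at 297, 646, 752 and 451 in PND2N, 568, 380.4, 354 and 578 in PND2R, and 563, 465, 404 and 401 in PND0. The groups overlapped throughout, and the lowest values were those of PND2N 1, PND2R 2 and PND2R 3. The log2 change was 0.15 ± 0.30 in PND2N versus PND0 (adjusted p = 0.762) and 0.02 ± 0.30 in PND2R versus PND0 (adjusted p = 0.975). The SE is larger than both differences, and a p that misses the threshold does not show equal levels. A further row, LOC100625775, contributed 0.309% to 2.20% of the ARNTL sum and averaged 4.63 ± 2.69 in PND2N, 2.25 ± 0.958 in PND2R and 7.64 ± 3.40 in PND0. Its log2 differences were −0.71 ± 0.44 in PND2N versus PND0 (adjusted p = 0.331) and −1.39 ± 0.44 in PND2R versus PND0 (adjusted p = 0.0533). All 4 PND2R values (1.10 to 3.32) were below all 4 PND0 values (5.19 to 12.6). The PND2R difference lay near the threshold and passed in 7 of 22 alternatives, which were fits without PND2N 1 (adjusted p = 0.0224), PND2N 3 (0.0477) or PND2R 1 (0.0464), with library quality weights (0.0281), only the groups compared (0.0437), plain empirical Bayes (0.0474) or an added value of 5 (0.0493).

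CLOCK lies on chromosome 8 (59054048 to 59093530, plus strand). It had 10.9, 228, 319 and 64.8 in PND2N, 381, 19.7, 18.4 and 281 in PND2R, and 266, 197, 374 and 360.0 in PND0. The 3 libraries that stood apart held 10.9 to 19.7, against 64.8 to 381 in the other 9, and PND2R 1 was the highest of all. For CLOCK the log2 difference was −1.74 ± 1.15 in PND2N versus PND0 (adjusted p = 0.352) and −1.84 ± 1.15 in PND2R versus PND0 (adjusted p = 0.252), and without the 3 libraries these were −0.78 (adjusted p = 0.375) and 0.17 (adjusted p = 0.887). The second CLOCK row, LOC100522883 (chromosome 8, 59292193 to 59302441, plus strand), read 7.81, 54.6, 63.1 and 19.1 in PND2N, 84.5, 15.0, 11.9 and 53.1 in PND2R, and 112, 84.2, 74.8 and 104 in PND0. Each PND2N value of this row was below each PND0 value, while PND2R overlapped with PND0. The row followed the first in holding its lowest values in the same 3 libraries. Its log2 differences were −1.73 ± 0.71 in PND2N versus PND0 (adjusted p = 0.169) and −1.58 ± 0.71 in PND2R versus PND0 (adjusted p = 0.130). Without the 3 libraries these were −1.17 (adjusted p = 0.148) and −0.46 (adjusted p = 0.612).

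**Figure D2:**
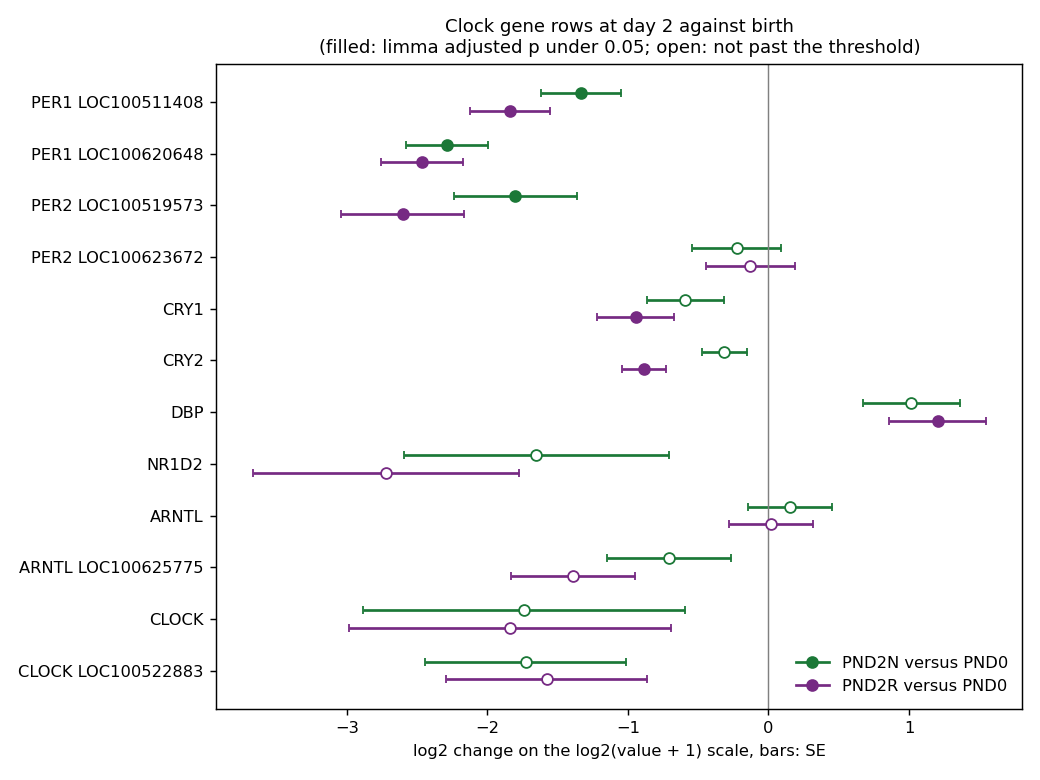
Log2 change ± SE of the 12 clock rows in PND2N versus PND0 (upper mark of each row) and PND2R versus PND0 (lower mark), on the log2(value + 1) scale, with filled marks past an adjusted p of 0.05. The PER1 rows and PER2 LOC100519573 are filled in both comparisons, CRY1, CRY2 and DBP in PND2R versus PND0 only, and the CLOCK and NR1D2 rows have the widest errors.

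The comparison of feeding at the same age, PND2N versus PND2R, gave 0 of 12 clock rows past the threshold in limma where 0.0119% of all genes tested passed. At an unadjusted p under 0.05 there was 1 clock row, where 2.68% of all genes lay under it. That row was CRY2, at 1388 ± 147 in PND2N and 936 ± 122 in PND2R (SD, n = 4 each), higher in all 4 nursed gilts than in all 4 replacer-fed gilts. Its log2 change was 0.57 ± 0.16 (adjusted p = 1.00), and 2.55% of all genes had groups without overlap here. For PER1 the difference was 0.18 ± 0.29 in LOC100620648 and 0.51 ± 0.28 in LOC100511408, and for PER2 LOC100519573 it was 0.80 ± 0.44. Since the difference between the day 2 groups passed for no clock row, the calls of CRY1, CRY2 and DBP in replacer-fed gilts alone do not show that feeding changed them.

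Cell type markers also differed between the libraries. Among the day 2 libraries other than the 3 that stood apart, NR1D2 ran from 61.8 to 160.2, and CLOCK from 64.8 to 381. Smooth muscle markers summed to 169132 to 212973 in the 3 libraries, above each of the other libraries (5 of 7 listed markers matched). By group, with the 3 libraries included, these sums were 65434 to 212973 in PND2N, 99082 to 170326 in PND2R and 80745 to 108705 in PND0. Endothelial markers summed to 5055 to 6116 in the 3 libraries, within ranges of 6116 to 10787 in PND2N, 5055 to 5894 in PND2R and 6981 to 11781 in PND0 (4 of 6 matched), so the sums of the other PND2R libraries lay inside the range of the 3. Stroma markers summed to 232516 to 298192 in the 3 libraries, below each of the other libraries (5 of 6 matched). By group the stroma sums were 271197 to 507171 in PND2N, 232516 to 413969 in PND2R and 325533 to 415476 in PND0. Immune markers summed to 7794 to 9819.7 in PND2N, 6923 to 9599 in PND2R and 3450 to 7002 in PND0 (6 of 7 matched). Epithelial markers summed to 47761 to 92083 in PND2N, 71044 to 92310 in PND2R and 21900 to 102026 in PND0 (7 of 8 matched). Each matched epithelial marker was lower in PND0 3 and 4 than in PND0 1 and 2. KRT8, for example, was at 49821 and 51645 in PND0 1 and 2, and at 14444 and 11100 in PND0 3 and 4. The newborn libraries thus also differed among themselves. The part of these markers in the clock results was not tested.

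**Figure D3:**
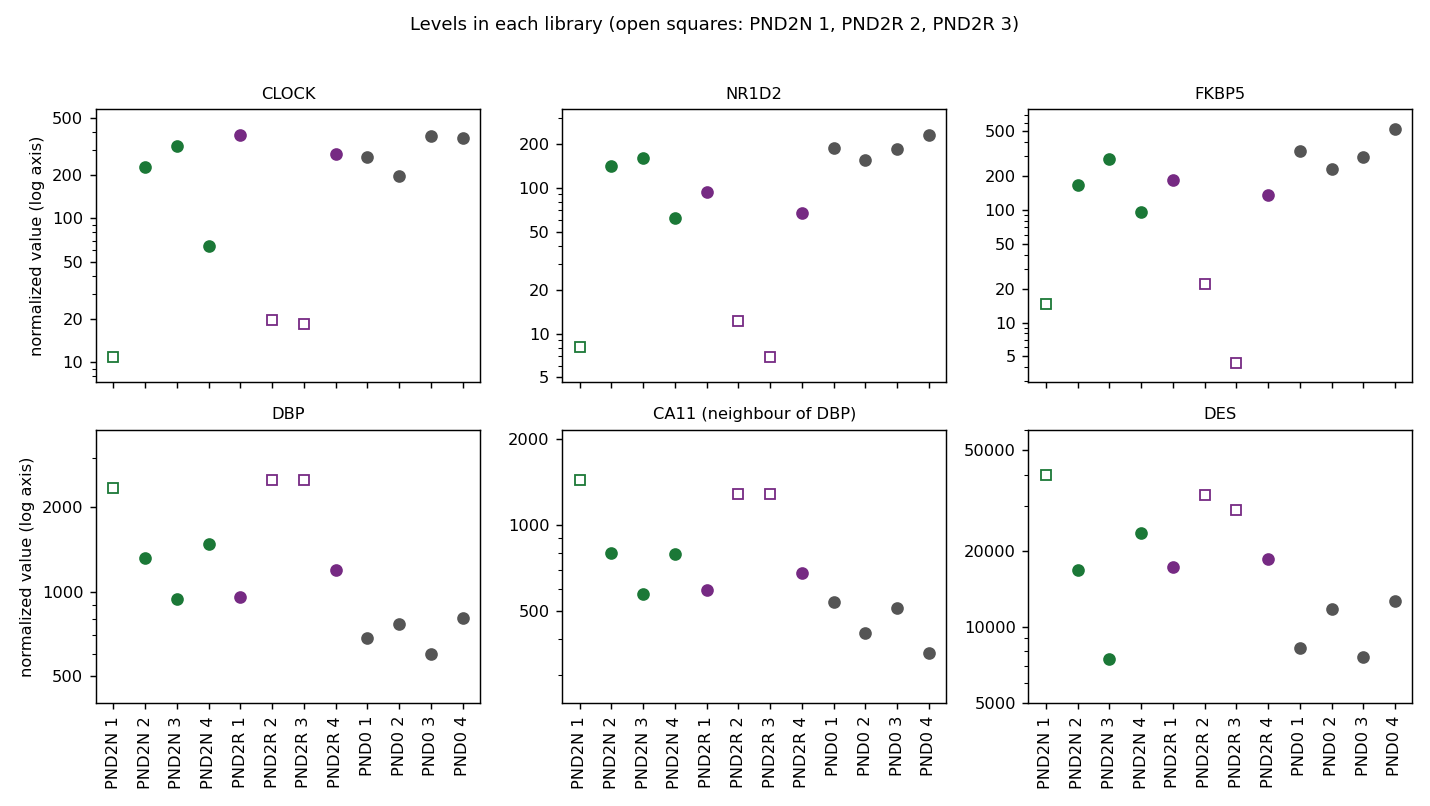
Normalized value (log axis) in each of the 12 libraries for CLOCK, NR1D2, the glucocorticoid target FKBP5, DBP, its neighbour CA11 and the smooth muscle gene DES, with PND2N 1, PND2R 2 and PND2R 3 as open squares. These 3 libraries are the lowest of 12 for CLOCK, NR1D2 and FKBP5 and the highest for DBP, CA11 and DES.

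A mean of PER1, PER2, NR1D2 and DBP minus a mean of ARNTL, CLOCK and NPAS2 was taken per library, on the log2 scale with each gene centred on its mean over the 12 libraries. This difference was 0.97, −0.23, −0.52 and 0.25 in PND2N, −0.80, 0.30, 0.29 and −0.74 in PND2R, and −0.22, 0.16, 0.21 and 0.31 in PND0. The groups overlapped, and animals of the same day 2 group lay on both sides of zero. It is given as a description, with no test, and includes DBP, which ran opposite to PER1 and PER2 between the ages.

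Beyond the listed genes, 24 of 29 further clock genes had a tested row. In PND2N versus PND0, 1 of 24 passed (KLF9, lower), where 3.32% of all genes tested passed. The median log2 change of the 24 was −0.17. In PND2R versus PND0, 3 of 24 passed (ARNTL2 higher, KLF9 and KLF10 lower), where 15.0% of all genes tested passed. The median of the 24 there was −0.22. KLF9, counted in both, passed the filter only through its PND0 values. In PND2N versus PND2R, 0 of 24 passed in limma, with 1 at an unadjusted p under 0.05. The shares of all genes at each threshold are those given above for each comparison.

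ARNTL2, a paralog of ARNTL that can also pair with CLOCK, averaged 238 ± 90.8 in PND2N, 312 ± 47.4 in PND2R and 123 ± 25.0 in PND0. It rose in PND2R versus PND0 (1.34 ± 0.29, adjusted p = 0.0168), a call lost without PND2R 2 or 3 and without the 3 libraries together (adjusted p = 0.0758), and its change in PND2N versus PND0 was 0.89 ± 0.29 (adjusted p = 0.102). NPAS2, a paralog of CLOCK, averaged 408 ± 126 in PND2N, 435 ± 81.7 in PND2R and 641 ± 152 in PND0 and passed in neither comparison with birth (adjusted p = 0.173 for PND2N and 0.183 for PND2R). PND2N 1 held the lowest NPAS2 value of the 12, at 222.

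KLF9 and KLF10 are transcription factors with daily rhythms in several tissues. KLF10 averaged 4696 ± 1259 in PND2N, 3095 ± 557 in PND2R and 6585 ± 1063 in PND0. It fell in PND2R versus PND0 (−1.09 ± 0.23, adjusted p = 0.0138) with each library left out and without the 3 libraries (adjusted p = 0.0382). KLF9 had very low values, at 1, 1, 3.53 and 1.40 in PND2N, 1 in all 4 PND2R libraries, and 8.15, 4.90, 12.9 and 6.87 in PND0. It passed in PND2N versus PND0 (adjusted p = 0.0256) and in PND2R versus PND0 (adjusted p = 0.00701), and no fold is given because most day 2 values were at the lowest value of the table. Without the 3 libraries the adjusted p of KLF9 was 0.0719 in PND2N versus PND0 and 0.0628 in PND2R versus PND0. The PND2N call was also lost without PND2N 1, 2 or 4 or PND0 1, 3 or 4 and with only the groups compared (adjusted p up to 0.0924).

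Among regulators of PER and CRY stability, none passed in any comparison. FBXW11, which targets PER together with its paralog BTRC, averaged 211 ± 156 in PND2N, 133 ± 121 in PND2R and 374 ± 18.2 in PND0, and its spread at day 2 was far wider than at birth. BTRC averaged 467 ± 137 in PND2N, 452 ± 116 in PND2R and 669 ± 145 in PND0.

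The receptors and repressors that act on ARNTL and on the output branch also passed in no comparison. RORA, an activator of ARNTL, averaged 363 ± 82.3 in PND2N, 385 ± 36.5 in PND2R and 426 ± 187 in PND0. NFIL3, which opposes DBP at its target sites, averaged 3065 ± 394 in PND2N, 3449 ± 137 in PND2R and 3755 ± 457 in PND0. CIART, a repressor of the CLOCK and ARNTL dimer, averaged 107 ± 41.5 in PND2N, 114 ± 26.0 in PND2R and 208 ± 156 in PND0, and PND0 3 and 4 stood above PND0 1 and 2 for this gene as they did for PER1. NAMPT, an output gene of NAD metabolism, averaged 1549 ± 567 in PND2N, 1196 ± 500.1 in PND2R and 1954 ± 237 in PND0.

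**Figure D4:**
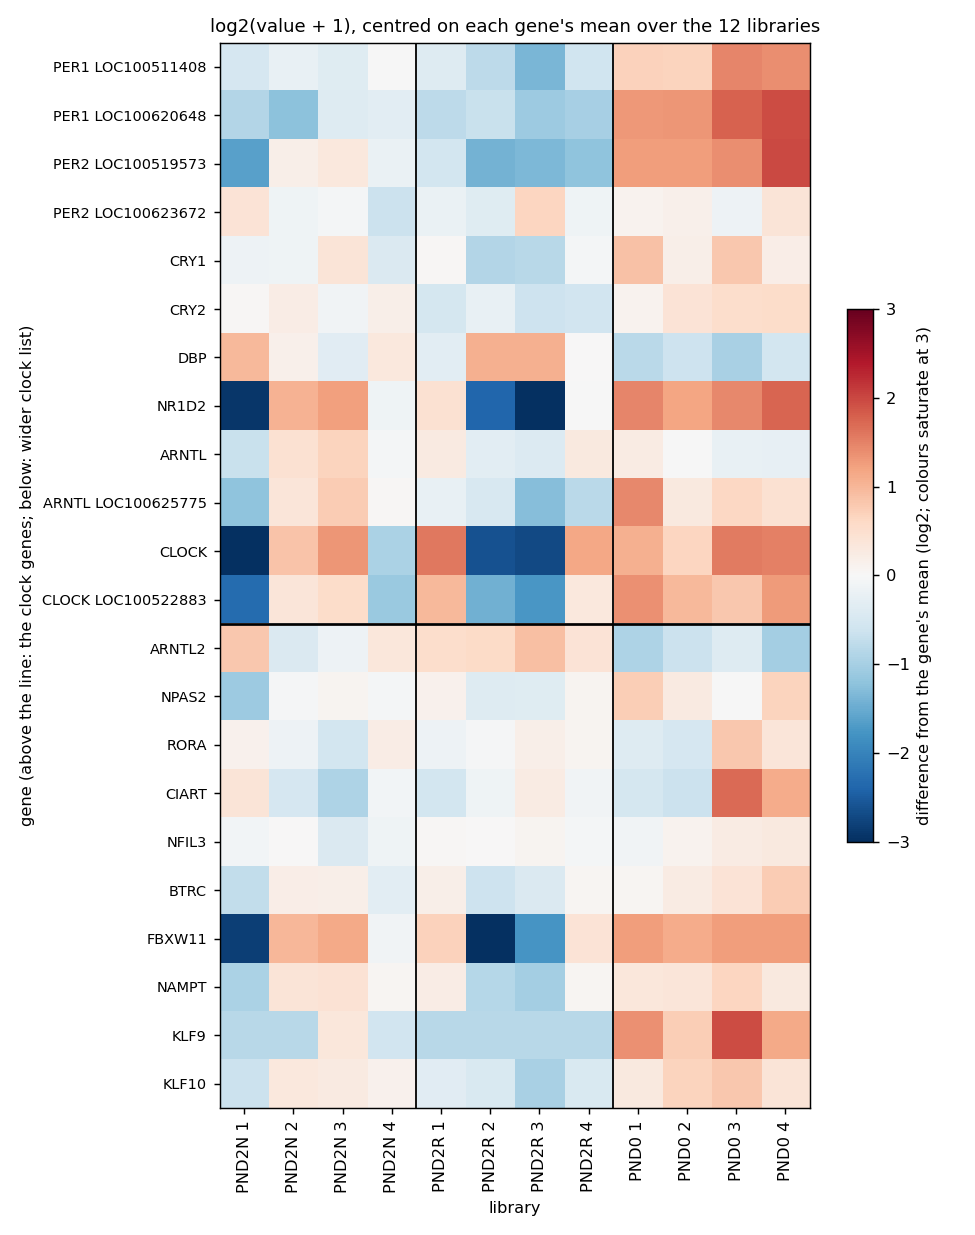
Log2(value + 1) of each clock row (above the line) and of 10 genes of the wider clock list (below it) in the 12 libraries, centred on the gene's mean. PER1 and PER2 LOC100519573 are above their mean in all 4 PND0 libraries, and NR1D2, CLOCK and FBXW11 are far below theirs in PND2N 1, PND2R 2 and PND2R 3.

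Because PER1 is a glucocorticoid target, 12 of 13 listed glucocorticoid genes were measured alongside it. Besides response genes, these 12 include the receptor gene NR3C1 and the gene of a glucocorticoid enzyme, HSD11B2. In each comparison with birth 3 of 12 were lower past the threshold and none was higher past it. These were ZBTB16, ERRFI1 and KLF9, which also stands in the clock list and passed the filter only through its PND0 values. The median was −0.53 in PND2N versus PND0 and −0.59 in PND2R versus PND0. By sign, 2 of 12 were higher in PND2N versus PND0 (PDK4 at 0.55 and HSD11B2 at 0.93). In PND2R versus PND0 3 of 12 were higher (CEBPD at 0.18, DDIT4 at 0.17 and HSD11B2 at 0.57). Of all genes tested, 1.41% were lower past the threshold in PND2N versus PND0 and 7.31% in PND2R versus PND0, with medians of −0.035 and −0.055. ZBTB16, a zinc finger repressor, averaged 62.1 ± 44.5 in PND2N, 23.4 ± 24.7 in PND2R and 787 ± 291 in PND0 (adjusted p = 0.0492 in PND2N versus PND0 and 0.0113 in PND2R versus PND0). Its PND2N call held in 2 of 12 fits with 1 library left out, without PND2N 3 or PND2R 1, and the adjusted p was up to 0.130 in the others. It was also lost with an added value of 0.1 (0.0577), no filter (0.0541), only the groups compared (0.0907) and plain empirical Bayes (0.0573). Its 3 lowest values were those of PND2N 1 (2.42), PND2R 2 (3.54) and PND2R 3 (4.40), and without them the changes were −3.22 in PND2N versus PND0 (adjusted p = 0.0136) and −4.15 in PND2R versus PND0 (adjusted p = 0.00653), against −4.36 and −5.70 with all libraries. ERRFI1, an inhibitor of the EGF receptor, averaged 1270.4 ± 316 in PND2N, 1489 ± 63.5 in PND2R and 2967 ± 794 in PND0 (adjusted p = 0.0220 in PND2N versus PND0 and 0.0192 in PND2R versus PND0). The PND2N call was lost without PND2N 4 or PND0 4 (adjusted p up to 0.0821) and with only the groups compared (0.0850), and held without the 3 libraries that stood apart (0.0362). Its PND2R call was lost without PND2R 2 or 3 (up to 0.0619) and without the 3 libraries that stood apart (0.0904). FKBP5, a chaperone of the glucocorticoid receptor, averaged 141 ± 115 in PND2N, 86.9 ± 87.6 in PND2R and 348 ± 125 in PND0 and did not pass (adjusted p = 0.307 in PND2N versus PND0 and 0.0767 in PND2R versus PND0). TSC22D3 (GILZ) was at 2816 ± 229 in PND2N, 2603 ± 415 in PND2R and 3099 ± 335 in PND0, also not past the threshold. Glucocorticoid levels were not measured in these files, and a part of this hormone in the PER1 values was not tested.

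Of the genes with a symbol, those most like PER1 LOC100620648 over the 12 libraries (Pearson r of log2 values among 12188 genes, as a description) were TMEM63B at 0.96 and RUNX2, VAMP2, IGHMBP2 and CCDC9 at 0.95. These 5 genes were lower past the threshold in both comparisons with birth, and likeness within a group was not tested. VAMP2 is also the nearest gene row, 8751 bases away on the same strand, and averaged 107 ± 13.2 in PND2N, 97.8 ± 18.4 in PND2R and 342 ± 77.5 in PND0. Most like ARNTL were TRAK2 and TXNL1 at 0.97 and ATP6V1A, IRAK4 and MINPP1 at 0.94. None of these passed in a comparison with birth, and all 5 had, like ARNTL, their lowest value in PND2N 1.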

How the data were processed

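The authors deposited 1 table of signal, a linear value per gene row and library that is already normalized and never falls below 1. Per the submitters' processing notes, bcl2fastq was used, and Sscrofa10.2 is the build they name. Details of alignment, read assignment and scaling were not given in the sources used here. Per the labels' protocols, RNA was isolated from trimmed uteri with a column kit, and libraries were made with a kit for messenger RNA. Some low values of a library were whole multiples of 1 step and others were not. No counts were therefore recovered, depth is known only roughly, and no binomial interval was computed. Each animal is 1 library.

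Values were taken as log2(value + 1), which understates changes of low genes. Rows above 1 in at least 4 of 12 libraries (16862) were fitted together with all 12 libraries. The fit used R 4.3.3 with statmod 1.5.0 and limma 3.58.1, with trended, robust empirical Bayes moderation. It was tried on simulated data with independent noise in each library. That trial held no libraries that shift together, so it does not bear on those that stood apart here. Tests are two-sided, with Benjamini-Hochberg adjustment over all rows tested and a threshold of 0.05. Tables came from pandas 2.3.3 and numpy 2.4.6, and figures from matplotlib 3.10.9, all under Python 3.11.15. Gene names came from the table or an NCBI gene table of Sscrofa11.1. The members, lists and alternatives were chosen with earlier results of these data known. Named are all members, list genes past the threshold, up to 4 of each class by the F test, glucocorticoid genes set beside PER1, and the 5 genes most like PER1 and ARNTL. CA11 was chosen after its values were seen. Some genes of the wider clock list are counted but not reported singly here. A planned promoter motif search was not run because no sequences were used here.

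Alternatives tried were 0.1 or 5 in place of the added 1, dropping the filter or raising it to 10, quantile normalization, scaling by TMM (own code after its definition, trims 0.3 and 0.05), only the groups compared, plain empirical Bayes, library quality weights, each library left out, and PND2N 1, PND2R 2 and PND2R 3 left out together. Fits with the rows of 1 gene summed were added after seeing the data.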

Additional observations from a re-analysis of the deposited data

How the results depend on the processing

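The count of clock rows past the threshold in PND2R versus PND0 was 6, and 4 to 8 under every alternative. In PND2N versus PND0 it was 3, and 1 to 3 with 1 library left out, 0 with only the groups compared and 1 gene with the rows of a gene summed. By the F test it was 4, and 1 to 5 with 1 library left out and 2 genes with rows summed. Over all genes, 560 passed in PND2N versus PND0 (26 to 661 with 1 library left out, 7 with only the groups compared, 275 without the 3 libraries). In PND2R versus PND0 2531 passed (543 to 4109, and 284 without the 3 libraries). In PND2N versus PND2R 2 passed (1 to 3, 1 with only the groups compared, 6 with quality weights and 6 without the 3 libraries). Without PND0 4, 40 genes passed in PND2N versus PND0 and 862 in PND2R versus PND0, and without PND2N 1 these were 92 and 4109. Without PND2R 2 or 3, 543 and 567 passed in PND2R versus PND0. The cause was not tested, and fits without the 3 libraries have fewer samples.

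Values that turned in sign belonged to results that did not pass. In PND2N versus PND0 these were PER2 LOC100623672 (0.064 with quantile normalization), ARNTL (−0.036 to 0.41 with 1 library left out) and LOC100625775 (0.14 with rows summed). In PND2R versus PND0 they were LOC100623672 (0.31, quantile), ARNTL (−0.095 to 0.14 with 1 library left out, −0.00037 summed) and CLOCK (0.17 without the 3 libraries). In PND2N versus PND2R they were LOC100623672 (−0.27 to 0.12 with 1 left out, 0.14 summed), CRY1 (−0.045 without the 3 libraries), DBP (−0.44 to 0.017, and 0.19 without the 3 libraries), ARNTL (−0.052 to 0.39), CLOCK (−0.59 to 1.06, −0.035 quantile, −0.13 weights, −0.96 without the 3 libraries) and LOC100522883 (−0.57 to 0.41, 0.013 summed). No paired analysis was possible because the labels give no replicate numbers that groups share. Rows at 1 were not detectable at this depth, 4 animals a group limit the precision, and the errors of CLOCK and NR1D2 leave changes of several fold undetected.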
